A study of Mus musculus with 12 samples.

Results

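The translation factors examined here were the mRNAs of the initiation factors eIF1 to eIF6 and of the elongation factors eEF1 and eEF2, with the kinases of eIF2alpha, the eIF4E-binding proteins and the enzymes that modify the elongation factors. They were chosen by name, as the protein-coding genes whose mouse symbol begins with *Eif1* to *Eif6* or with *Eef1* or *Eef2*, which gave 69 of the 27179 genes listed. Enough reads for a test were found for 66 of them, among 14185 genes tested, and *Eif4e1b*, *Eef1akmt3* and *Eif4a3l1* were at or near 0 in all groups. RNA was measured in 12 libraries of primary hippocampal neurons of newborn mice, C57BL/6 in the labels and C57BL/6 and FVB in the methods of the study, kept in culture for 17 or 18 days on Transwell inserts, whose porous membrane lets neurites grow through while somas stay on top. Proteotoxic stress came from 10 μM MG132, a proteasome inhibitor, given for 7 h, and Ctrl neurons received its solvent, DMSO. This gave 4 groups of 3 libraries each: somas and neurites of Ctrl neurons, and somas and neurites of MG132 neurons. The labels do not say whether the 3 libraries of a group came from separate mice, so the p-values measure the spread between these libraries.

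Translation starts when eIF2, loaded with GTP and the initiator tRNA, joins the small ribosomal subunit together with eIF1, eIF1A, eIF3 and eIF5, and this complex is brought to the mRNA cap by eIF4E, eIF4G and the helicase eIF4A. Stress kinases phosphorylate eIF2alpha, which blocks its reloading by eIF2B, and 4E-BPs sequester eIF4E when mTOR is inactive. During elongation eEF1A delivers aminoacyl-tRNAs, the eEF1B subunits reload it with GTP, and eEF2 moves the ribosome along. In neurons several of these mRNAs are known to be present in dendrites, where proteins are also made.

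Levels are given as CPM, read counts of genes scaled to a common library size with TMM factors, in the order of replicates 1 to 3, and log2 fold changes with their standard errors. Adjusted p stands throughout for the p-value of the quasi-likelihood test of edgeR, adjusted by the Benjamini-Hochberg method over all 14185 genes, and a gene is said to have changed where it was under 0.05. The reads on genes numbered 4247610 to 22166347 per library. Mitochondrial genes took 9.78 to 29.2% of them and a single other gene 12.4 to 33.4%, and TMM factors ranged from 0.567 to 1.44, below 1 in all neurites libraries. The neurites libraries of replicate 1 stood apart from the rest on the third principal component, and the tables of replicate 1 are named for 18 days in culture and the others for 17. MG132 neurites 3 had the lowest TMM factor and the largest share on the single gene, and its table is named for another date than the rest of replicate 3, which may or may not mark a separate culture. Somas and neurites of one culture are fractions, and neither fraction held neurons alone. Astrocyte markers summed to 4542 to 5591 CPM in Ctrl somas and 20356 to 25338 CPM in Ctrl neurites, while neuronal markers summed to 750.4 to 1151 and 784 to 1419 CPM. Most of the astrocyte sum in neurites came from a single mRNA, *Gfap*, which averaged 1967 CPM in Ctrl somas and 17794 CPM in Ctrl neurites. Of the 6 astrocyte markers, 3 were higher in Ctrl neurites and 1 was lower, *Gja1* (-1.08 ± 0.23, adjusted p = 0.00512). Markers of fibroblasts and endothelium summed to 135 to 157 CPM in Ctrl somas and 29.8 to 64.3 CPM in Ctrl neurites, with the endothelial *Cldn5* at or near 0 in all groups. In such bulk samples, fewer cells of a type and less RNA per cell cannot be told apart.

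Many translation factor mRNAs rose with MG132 in each compartment, 24 of them in both. In somas, 34 of the 66 tested (51.5%) rose and 2 fell, whereas 15.5% of all genes tested rose and 11.9% fell. In neurites, 30 (45.5%) rose and 2 fell, beside 14.7% and 12.3% of all genes. Those that rose in both compartments included eIF3 subunits, the regulatory subunits of eIF2B, eIF5 and its partners, and *Eif4ebp1*. *Eef2k*, which encodes the kinase that inhibits eEF2, was the one factor that fell in both, and 23 factors passed the test in neither compartment.

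The median log2 fold change of the factors was 0.61 in somas and 0.49 in neurites, beside medians of -0.07 and -0.16 for all genes tested. The sum over all factors averaged 3857 ± 95.2 CPM in Ctrl somas (SD, n = 3) and reached 5951 ± 268 CPM after MG132. It was 6695 ± 665 CPM in Ctrl neurites and 10164 ± 684 CPM in MG132 neurites. On this TMM scale every MG132 library lay above every Ctrl library in each compartment. As a share of all reads, the factors took 0.443 to 0.553% in Ctrl somas and 0.691 to 0.829% in MG132 somas. In neurites the shares were 0.407 to 0.652% in Ctrl and 0.583 to 1.08% in MG132, so these 2 groups overlapped. A stricter call, with an adjusted p under 0.01 and a change over 1.7-fold, left 24 factors higher and 1 lower in somas (9.0% and 5.58% of all genes), and 19 higher and 1 lower in neurites (9.25% and 5.44%). Without the libraries of replicate 1, 24 rose and 1 fell in somas, and 22 rose and 0 fell in neurites, beside 1416 higher and 855 lower of all genes in somas and 1445 and 825 in neurites. On total counts without TMM factors, 13 rose and 1 fell in each compartment, beside 7.55% and 7.32% of all genes in somas and 6.61% and 9.42% in neurites, and no called factor changed its direction. Of 66 factors, 61 moved in the same direction in somas and neurites, a count that was not taken for all genes and so has no background. Across these 66 factors, which are not independent of each other within a library, the correlation of the responses was 0.837 (Pearson, n = 66 genes). Over all 14185 genes it was 0.735.

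Markers of other cells moved with MG132 too. In somas, 4 of 6 astrocyte, 3 of 6 oligodendrocyte and 3 of 5 microglial markers fell, in neurites 2, 3 and 5 of them fell, and none of these rose. The 3 tested markers of fibroblasts, *Col1a1*, *Col1a2* and *Dcn*, fell in somas, and the first 2 of them also in neurites. Summed microglial markers were at 501 to 610.5 CPM in Ctrl somas and 123 to 217 CPM in MG132 somas, and summed astrocyte markers in neurites went from 20356 to 25338 CPM in Ctrl to 9485 to 19472 CPM in MG132. *Gfap*, the largest part of the astrocyte sum, averaged 17794 CPM in Ctrl neurites and 11268 CPM in MG132 neurites, with overlapping groups. It did not pass there (-0.66 ± 0.33, adjusted p = 0.154), though it did with the replicate number as a block (-0.74, adjusted p = 0.000777). Of the 5 neuronal markers, 0 passed edgeR's test with MG132 in either compartment (0 at an unadjusted p under 0.05), and their sums overlapped between Ctrl and MG132. With the replicate number as a block, *Syt1* was lower with MG132 in somas (-0.56, adjusted p = 0.0160) and in neurites (-0.55, adjusted p = 0.0217), and *Snap25* in neurites (-0.60, adjusted p = 0.00442). With that block, 6 of 6 astrocyte, 6 of 6 oligodendrocyte and 5 of 5 microglial markers fell in somas, and 4, 6 and 5 in neurites. The part of these cells in the responses of the translation factors was not tested.

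**Figure D1:**
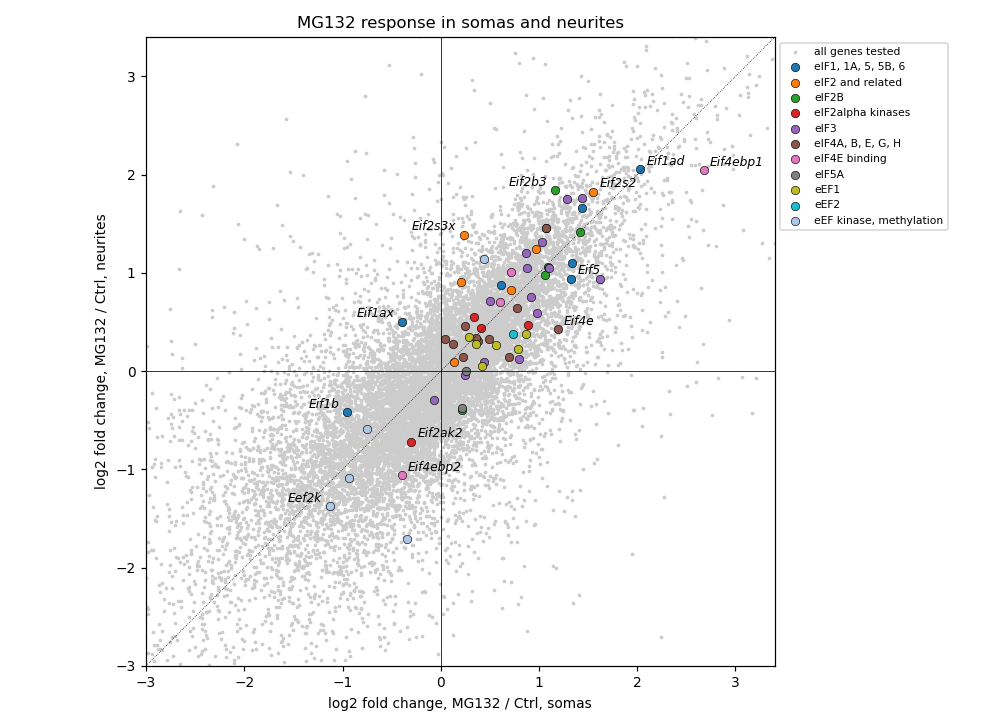
Log2 fold change of MG132 over Ctrl in somas (horizontal axis) and in neurites (vertical axis) for the translation factors, coloured by their group, over all genes tested in grey; the dotted line marks equal responses, and genes beyond the axes are not drawn. Most factors lie to the upper right, with *Eif4ebp1* and *Eif1ad* farthest out, *Eef2k* at the lower left, and *Eif1ax* left of 0 in somas and above 0 in neurites.

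Promoters were searched for 3 short motifs of stress-responsive transcription factors, since these mRNAs moved together. RefSeq promoters of GRCm38.p6 were at hand for 53 of the 69 factors, and the 250 bases before each listed start were read on both strands. The 2-unit heat shock element (GAANNTTC or TTCNNGAA) was present in 8 of 53 promoters, or 15.1%, and in 13.6% of the promoters of 18458 genes. The core of the antioxidant response element (TGACNNNGC) was found in 10, or 18.9%, beside 12.2% of all. The composite element read by ATF4 and C/EBP factors (TGATGNAA) was found in 2, or 3.77%, beside 3.53%. The stretches below, written along the strand of the gene with the match in capitals, are a selection of the matches, shown as examples of factors that rose in both compartments (*Eif1*, *Eif3a* and *Eif5b*), fell in both (*Eef2k*) or rose in somas (*Eef2*).
Eif1, antioxidant core (chr11:100319835-100319864, plus strand, 114 to 85 bases before the start): gcgtcaagcctTGACTCCGCcccccgacca
Eif3a, antioxidant core (chr19:60790773-60790802, minus strand, 109 to 80 bases before the start): cggcacccagcGCCACGTCAgcccgcgctc
Eif3a, heat shock element (chr19:60790829-60790858, minus strand, 165 to 136 bases before the start): aaaacggtcccGAAGGTTCcctcccgcaac
Eif5b, heat shock element (chr1:37997840-37997869, plus strand, 170 to 141 bases before the start): taggcaggggaGAATTTTCagtcccacttc
Eef2, antioxidant core (chr10:81176570-81176599, plus strand, 61 to 32 bases before the start): acgagcacccgGCGCCGTCAcgtgacgcac
Eef2k, ATF4 and C/EBP composite (chr7:120851094-120851123, plus strand, 95 to 66 bases before the start): ctttctgcttgTTTCATCAagctcagcttg
No 2 of the printed matches overlap, and the first letters of the antioxidant core are shared with the sites of AP-1 and CREB factors. The 2 composite matches lay before listed starts of *Eef2k*, which fell in both compartments, and *Eif2s3x*, which rose in neurites. The start of *Eef2k* used here lies within the gene, which spans chr7:120842642-120907219, so its match is not before the first base of the gene. Matches also lay before factors that passed the test in neither compartment. These were *Eef1b2*, *Eef1e1*, *Eif2d*, *Eif2s3y*, *Eif5a* and *Eif5a2* for the antioxidant core, and *Eif2ak3*, *Eif4g3* and *Eif5a2* for the heat shock element. A match describes letters in a window and not a site in use.

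The genes of eIF1, eIF1A, eIF5, eIF5B and eIF6, taken with *Eif1ad*, had the largest median response of the groups with several genes in somas. Of 8 genes, 6 rose and 1 fell in somas (median 1.20), and 7 rose in neurites (median 1.02). *Eif5*, which encodes the GTPase-activating protein of eIF2, was measured at 177, 172 and 169 CPM in Ctrl somas and at 394, 429 and 480.4 CPM in MG132 somas (log2 fold change 1.33 ± 0.15, adjusted p = 3.38e-05). In neurites it went from 425, 486 and 458 CPM to 850.5, 936 and 841 CPM (log2 fold change 0.94 ± 0.15, adjusted p = 0.000371). The groups did not overlap in either compartment. *Eif1ad*, which encodes a protein with a domain like that of eIF1A, rose by the largest amount of this group, from 10.4, 7.43 and 12.9 CPM to 42.3, 37.9 and 45.7 CPM in somas (log2 fold change 2.03 ± 0.25, adjusted p = 5.77e-05). Its neurites values were 10.8, 10.4 and 17.2 CPM for Ctrl and 50.9, 50.1 and 59.1 CPM for MG132 (log2 fold change 2.06 ± 0.26, adjusted p = 4.52e-05). The GTPase gene *Eif5b*, needed for subunit joining, rose in both compartments (log2 fold changes 0.62 ± 0.17 and 0.87 ± 0.17), as did *Eif6*, whose product keeps the large subunit from joining too early (1.44 ± 0.36 and 1.67 ± 0.38). Of the exons of *Eif1ad* and *Eif5b*, 15.3% and 16.8% overlapped those of other genes, and the strand setting of the counting was not given, so part of their reads may belong to these neighbours. Leaving out 1 library ended the call of *Eif5b* in somas (Ctrl somas 3 or MG132 somas 1 or 3, adjusted p = 0.0509 to 0.06003).

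Related genes of this group had unlike values. *Eif1*, whose product guards start codon choice, rose from 24.4, 26.9 and 24.5 CPM to 46.8, 54.1 and 58.9 CPM in somas (log2 fold change 1.08 ± 0.17, adjusted p = 0.000395). In neurites *Eif1* rose from 32.8, 32.4 and 39.4 CPM to 87.8, 107 and 92.7 CPM (log2 fold change 1.46 ± 0.17, adjusted p = 3.30e-05). Its close relative *Eif1b* fell in somas, from 40.7, 36.6 and 51.5 CPM to 22.8, 17.3 and 25.994 CPM (log2 fold change -0.95 ± 0.22, adjusted p = 0.00478), and all MG132 somas libraries lay below all Ctrl ones. In neurites the value for *Eif1b* was -0.42 ± 0.22 (adjusted p = 0.169). Of the genes of eIF1A, which works with eIF1 in scanning, the autosomal *Eif1a* rose in somas (1.34 ± 0.20, adjusted p = 0.000235) and in neurites (1.10 ± 0.20, adjusted p = 0.000936). The X-linked *Eif1ax* was at 46.2, 48.8 and 39.6 CPM in Ctrl somas and at 37.4, 29.9 and 34.9 CPM in MG132 somas (log2 fold change -0.39 ± 0.16, adjusted p = 0.0734). In neurites it rose from 76.2, 77.7 and 76.2 CPM to 105, 109.95 and 112 CPM (log2 fold change 0.50 ± 0.15, adjusted p = 0.0247), a call that ended without Ctrl neurites 1 or 2 or MG132 neurites 2 (adjusted p = 0.0593 to 0.0726). The Ctrl and MG132 libraries of *Eif1ax* did not overlap in either compartment, with MG132 lower in somas and higher in neurites.

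The subunits of eIF2, which carries the initiator tRNA, rose in part. Of the 6 genes of eIF2 and related factors, 3 rose in somas (median 0.47) and 4 in neurites (median 1.07), and 0 fell. *Eif2s2*, the beta subunit, rose from 28.3, 32.9 and 36.2 CPM to 91.8, 78.7 and 115 CPM in somas (log2 fold change 1.56 ± 0.22, adjusted p = 0.000189). In neurites *Eif2s2* rose from 38.9, 66.1 and 74.0 CPM to 197, 210.4 and 229 CPM (log2 fold change 1.82 ± 0.23, adjusted p = 4.31e-05), one of the largest rises there. *Eif2s1*, the alpha subunit that the stress kinases phosphorylate, rose from 26.5, 29.1 and 19.5 CPM to 40.1, 52.5 and 54.4 CPM in somas (log2 fold change 0.97 ± 0.19, adjusted p = 0.00200). The values of *Eif2s1* in neurites were 35.2, 35.0 and 30.8 CPM for Ctrl and 81.7, 81.7 and 75.8 CPM for MG132 (log2 fold change 1.24 ± 0.20, adjusted p = 0.000301). The gamma subunit is encoded by an X-linked and a Y-linked gene, and *Eif2s3x* rose in neurites (1.39 ± 0.41, adjusted p = 0.0210) with a value of 0.24 ± 0.40 in somas. *Eif2s3y* gave 0.21 ± 0.35 and 0.90 ± 0.35 and passed the test in neither, though with the block it did in neurites (0.92, adjusted p = 0.0173). Reads of *Eif2s3x* are uncertain, since 35.7% of its 75-base windows also occur in other genes. *Eif2a*, an unrelated factor that can bring initiator tRNA in place of eIF2, rose in both compartments (0.71 ± 0.23 and 0.82 ± 0.23). Calls that ended without 1 library were those of *Eif2a* in somas (Ctrl somas 1 or 2 or 3 or MG132 somas 2 or 3, adjusted p = 0.0644 to 0.0938), *Eif2a* in neurites (Ctrl neurites 1 or MG132 neurites 2, adjusted p = 0.0539 to 0.0624) and *Eif2s3x* in neurites (Ctrl neurites 1 or MG132 neurites 3, adjusted p = 0.0525 to 0.0741).

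Within eIF2B, the exchange factor that reloads eIF2 with GTP, the 3 regulatory subunits rose in both compartments and the catalytic subunit *Eif2b5* in neither. *Eif2b4* rose from 10.2, 10.1 and 10.9 CPM to 21.7, 32.7 and 29.2 CPM in somas (log2 fold change 1.42 ± 0.24, adjusted p = 0.000597). In neurites *Eif2b4* rose from 8.20, 8.39 and 10.3 CPM to 22.6, 28.3 and 20.4 CPM (log2 fold change 1.41 ± 0.25, adjusted p = 0.000689). The other regulatory subunits changed by about the same amount, *Eif2b1* by 1.09 ± 0.27 and 1.06 ± 0.27, and *Eif2b2* by 1.06 ± 0.27 and 0.98 ± 0.28. *Eif2b3*, which pairs with the catalytic subunit, rose in neurites (1.84 ± 0.47, adjusted p = 0.00889), where 1 Ctrl library held 3 counts, and gave 1.16 ± 0.44 in somas (adjusted p = 0.0636, and 1.15, adjusted p = 0.0363 with the replicate number as a block). *Eif2b5* was at 32.0, 15.4 and 23.6 CPM in Ctrl somas and 28.0, 24.4 and 30.3 CPM in MG132 somas (log2 fold change 0.22 ± 0.28, adjusted p = 0.606). Its neurites value was -0.39 ± 0.28 (adjusted p = 0.330), so the 2 groups were not told apart in either compartment. The call of *Eif2b2* in neurites ended without MG132 neurites 2 (adjusted p = 0.0615).

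Of the 4 kinases of eIF2alpha, 1 rose in somas and another 1 in neurites. *Eif2ak4* (GCN2, the sensor of uncharged tRNA) rose in somas, from 13.8, 13.9 and 16.3 CPM to 26.9, 22.8 and 31.4 CPM (log2 fold change 0.89 ± 0.21, adjusted p = 0.00672), and gave 0.47 ± 0.22 in neurites (adjusted p = 0.127). *Eif2ak1* (HRI, which responds to heme deficiency and mitochondrial stress) rose in neurites (0.55 ± 0.19, adjusted p = 0.0450), a call that ended without Ctrl neurites 1 or 2 or MG132 neurites 2 or 3 (adjusted p = 0.0759 to 0.144). *Eif2ak3* (PERK, the kinase of the endoplasmic reticulum) gave 0.41 ± 0.25 in somas and 0.44 ± 0.26 in neurites, with adjusted p = 0.249 and 0.221. *Eif2ak2* (PKR, which binds double-stranded RNA) had negative values in both compartments, -0.30 ± 0.27 (adjusted p = 0.443) and -0.72 ± 0.26 (adjusted p = 0.0572), and the neurites value passed with the block (-0.74, adjusted p = 0.00135).

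eIF3, the scaffold of many subunits that holds the initiation complex together, had the largest number of rising genes. Of 14 subunit genes, 10 rose in somas (median 0.90) and 9 in neurites (median 0.85), 8 of them in both, and 0 fell. The summed level of the subunits was 694 ± 44.5 CPM in Ctrl somas, 1292 ± 83.2 CPM in MG132 somas, 1326 ± 241.05 CPM in Ctrl neurites and 2766 ± 89.1 CPM in MG132 neurites. *Eif3a*, the largest subunit which also had the highest CPM of the subunits in all groups, rose from 216, 268 and 243.03 CPM to 445, 497 and 542 CPM in somas (log2 fold change 1.03 ± 0.19, adjusted p = 0.00129). In neurites *Eif3a* rose from 460.4, 637 and 773 CPM to 1533, 1534 and 1582 CPM (log2 fold change 1.31 ± 0.19, adjusted p = 0.000188). The MG132 libraries lay above the Ctrl libraries in both compartments. *Eif3g*, a subunit with an RNA-binding domain, rose by 1.44 ± 0.18 in somas and 1.76 ± 0.18 in neurites (adjusted p = 5.30e-05 and 9.35e-06). *Eif3b* and *Eif3c*, which with *Eif3a* form the core, and *Eif3d* and *Eif3e*, which take part in cap binding and mRNA recruitment, also rose in both, by 0.75 to 1.21. Both genes of the loosely bound subunit eIF3j rose in both compartments, but 37.7% of the windows of *Eif3j1* and 87.4% of those of *Eif3j2* occur in other genes, so their counts could not be told apart with certainty.

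The remaining subunits did not follow the core in both fractions. *Eif3f* and *Eif3m* rose in somas (0.80 ± 0.21 and 0.98 ± 0.25), with 0.12 ± 0.21 and 0.59 ± 0.24 in neurites, while *Eif3l* rose in neurites (0.71 ± 0.19), with 0.50 ± 0.19 in somas. With the block, *Eif3m* in neurites (0.63, adjusted p = 0.0242) and *Eif3l* in somas (0.50, adjusted p = 0.0282) passed as well. *Eif3h*, *Eif3i* and *Eif3k* passed the test in neither compartment. *Eif3i*, which binds *Eif3b* and *Eif3g* proteins in the complex, was at 22.998, 27.9 and 26.4 CPM in Ctrl somas and 28.8, 17.1 and 27.2 CPM in MG132 somas (log2 fold change -0.07 ± 0.27, adjusted p = 0.879), with overlapping groups. Exons of *Eif3d* overlapped those of other genes over 43.3% of their length. With 1 library left out, the calls lost were *Eif3d* in neurites (MG132 neurites 2, adjusted p = 0.0722), *Eif3e* in neurites (Ctrl neurites 1 or MG132 neurites 2, adjusted p = 0.0579 to 0.0668), *Eif3j1* in neurites (Ctrl neurites 2 or 3 or MG132 neurites 1 or 2, adjusted p = 0.0818 to 0.161) and *Eif3l* in neurites (MG132 neurites 2, adjusted p = 0.0764).

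Among the factors at the cap, 5 of 11 tested rose in somas (median 0.38) and 3 in neurites (median 0.33), and the helicase genes of eIF4A went separate ways. *Eif4a1* rose from 18.0, 29.2 and 22.9 CPM to 45.2, 48.6 and 53.3 CPM in somas (log2 fold change 1.07 ± 0.30, adjusted p = 0.0147). In neurites *Eif4a1* rose from 11.4, 34.3 and 20.7 CPM to 59.1, 64.2 and 62.5 CPM (log2 fold change 1.46 ± 0.30, adjusted p = 0.00235). *Eif4a2*, the relative that dominates in brain and was the more abundant in all groups, was at 183, 154 and 159.6 CPM in Ctrl somas and 178, 141 and 192 CPM in MG132 somas (log2 fold change 0.04 ± 0.16, adjusted p = 0.877). Its groups overlapped, and the neurites value was 0.32 ± 0.16 (adjusted p = 0.162). *Eif4a3*, the helicase of the exon junction complex, gave 0.38 ± 0.21 and 0.31 ± 0.22 and passed in neither compartment. The cap-binding *Eif4e* rose in somas from 24.0, 20.8 and 21.0 CPM to 51.0, 43.4 and 55.7 CPM (log2 fold change 1.19 ± 0.18, adjusted p = 0.000312). In neurites *Eif4e* stood at 43.7, 35.3 and 47.1 CPM for Ctrl and 52.7, 55.1 and 61.3 CPM for MG132 (log2 fold change 0.43 ± 0.18, adjusted p = 0.0991). *Eif4e2*, a cap-binding protein that represses translation, rose in both (0.77 ± 0.20 and 0.65 ± 0.20). Without 1 library the calls of *Eif4a1* in somas (Ctrl somas 1, adjusted p = 0.0627) and *Eif4e2* in neurites (Ctrl neurites 1 or 2 or MG132 neurites 2, adjusted p = 0.05996 to 0.118) ended.

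The scaffolds of eIF4F had smaller values. *Eif4g1*, the main scaffold, gave 0.25 ± 0.14 in somas (adjusted p = 0.209) and rose in neurites, from 213, 214 and 240.98 CPM to 307, 297.94 and 314 CPM (log2 fold change 0.46 ± 0.14, adjusted p = 0.0264). *Eif4g2*, a relative that cannot bind eIF4E and serves cap-independent initiation, rose in somas, from 643, 670.4 and 581 CPM to 784, 918 and 956 CPM (log2 fold change 0.49 ± 0.17, adjusted p = 0.0475). The log2 fold changes of *Eif4g3* were 0.12 ± 0.18 and 0.28 ± 0.18, and neither passed the test. *Eif4b*, a cofactor of eIF4A, rose in somas by 0.70 ± 0.25 (adjusted p = 0.0479). These calls stood close to the threshold and ended without 1 library, *Eif4g1* in neurites (Ctrl neurites 1 or 2 or MG132 neurites 1 or 2, adjusted p = 0.0561 to 0.0778), *Eif4g2* in somas (any 1 of the 6 libraries, adjusted p = 0.0578 to 0.141) and *Eif4b* in somas (any 1 of the 6 libraries, adjusted p = 0.0682 to 0.136).

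The mRNA that rose most among the factors in somas was *Eif4ebp1*, a repressor that binds eIF4E when mTOR is inactive. It went from 1.31, 3.55 and 3.20 CPM in Ctrl somas to 11.4, 21.8 and 17.7 CPM in MG132 somas (log2 fold change 2.68 ± 0.42, adjusted p = 0.000321). In neurites *Eif4ebp1* rose from 5.03, 6.37 and 8.91 CPM to 17.6, 32.6 and 34.1 CPM (log2 fold change 2.05 ± 0.40, adjusted p = 0.00159). *Eif4ebp2*, the main eIF4E-binding protein of brain, moved the other way: it was at 24.9, 27.7 and 19.0 CPM in Ctrl neurites and at 5.70, 14.4 and 13.7 CPM in MG132 neurites (log2 fold change -1.06 ± 0.37, adjusted p = 0.0467). Its somas value was -0.40 ± 0.36 (adjusted p = 0.453). *Eif4ebp3* stayed between 2.27 and 4.11 CPM on average and passed in neither compartment, with 64.2% of its windows found in other genes. *Eif4enif1*, whose product carries eIF4E into the nucleus and into processing bodies, rose in both (0.71 ± 0.24 and 1.01 ± 0.25). The calls of *Eif4ebp2* in neurites (Ctrl neurites 1 or 2 or 3 or MG132 neurites 1 or 3, adjusted p = 0.0658 to 0.151) and *Eif4enif1* in somas (any 1 of the 6 libraries, adjusted p = 0.0647 to 0.122) ended without 1 library.

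Some elongation factors rose in somas, and a difference between the compartments did not pass the test for any of them. Of the 6 genes of eEF1, 3 rose in somas (median 0.49) and 0 in neurites (median 0.27). *Eef1a1*, which encodes the tRNA carrier found in most cells, rose from 231, 231 and 199 CPM to 314, 329 and 336 CPM in somas (log2 fold change 0.57 ± 0.20, adjusted p = 0.0478), and this call ended without any 1 of the 6 somas libraries (adjusted p = 0.0773 to 0.135). *Eef1a2*, its relative in mature neurons and muscle, gave 0.29 ± 0.39 in somas and 0.34 ± 0.39 in neurites (adjusted p = 0.628 and 0.551). Of the exchange factor genes, *Eef1d* and *Eef1g* rose in somas (0.78 ± 0.19 and 0.87 ± 0.20) and *Eef1b2* gave 0.42 ± 0.21 (adjusted p = 0.155). Of the 75-base windows of *Eef1g*, 56.5% and of those of *Eef1a1*, 41.7%, occur in other genes, so their reads are uncertain. *Eif5a*, which helps ribosomes past difficult stretches, gave 0.26 ± 0.16 in somas (adjusted p = 0.245) and a value near 0 in neurites (adjusted p = 0.990), and *Eif5a2* gave 0.22 ± 0.27 and -0.37 ± 0.28, and neither gene passed the test in a compartment.

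The translocase eEF2 and its kinase moved in opposite directions in somas. *Eef2*, which encodes the translocase, rose in somas from 307, 318 and 328 CPM to 548, 542 and 493 CPM (log2 fold change 0.73 ± 0.18, adjusted p = 0.00837) and stood at 649, 426 and 691 CPM in Ctrl neurites and 715, 766 and 809 CPM in MG132 neurites (log2 fold change 0.38 ± 0.18, adjusted p = 0.143, and 0.39, adjusted p = 0.0495 with the block). *Eef2k* fell in somas from 31.1, 24.6 and 23.3 CPM to 14.1, 11.5 and 10.6 CPM (log2 fold change -1.13 ± 0.33, adjusted p = 0.0199). In neurites *Eef2k* fell from 26.7, 19.9 and 24.4 CPM to 9.81, 12.9 and 3.91 CPM (log2 fold change -1.38 ± 0.34, adjusted p = 0.00761). All MG132 libraries were below all Ctrl libraries in both compartments. The ratio of *Eef2* to *Eef2k* counts, which no scaling of the libraries alters, was 9.87, 12.9 and 14.1 in Ctrl somas and 39.0, 47.1 and 46.4 in MG132 somas, and 24.3, 21.4 and 28.3 and 72.9, 59.3 and 207 in neurites. The 4 tested methyltransferases of eEF1A and eEF2 were low, with group means of 1.49 to 13.2 CPM, and passed in neither compartment. The call of *Eef2k* in somas (Ctrl somas 1 or MG132 somas 2 or 3, adjusted p = 0.0548 to 0.0880) was lost without 1 library.

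**Figure D2:**
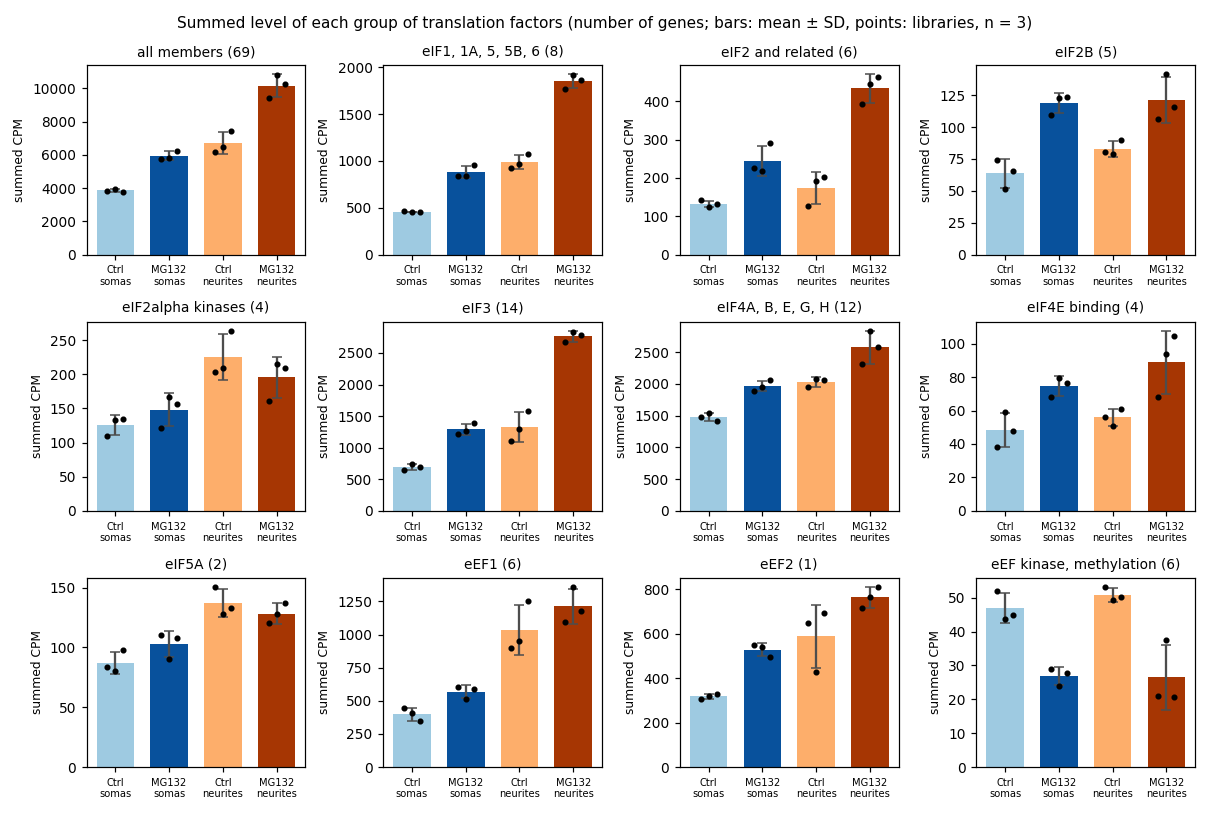
Summed CPM of the genes of each group of translation factors in the 4 groups of libraries (bars, mean with SD; points, the 3 libraries), with the number of genes in brackets and CPM after TMM scaling. MG132 bars are above Ctrl bars in both compartments for eIF3, eIF2 and eIF2B, and below them for the genes that modify elongation factors. As a share of all reads, the sum over the factors overlapped between somas and neurites, and between Ctrl and MG132 neurites.

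For pairs of related genes, the ratio of counts was taken within each library, where it does not depend on scaling. Since these pairs were picked after the fold changes were known, the ratios are given as a description. The count of *Eif1* over that of *Eif1b* was 0.599, 0.736 and 0.475 in Ctrl somas and 2.05, 3.14 and 2.27 in MG132 somas. In neurites the ratio of *Eif1* to *Eif1b* was 0.519, 0.751 and 0.785 in Ctrl and 2.07, 2.90 and 2.47 in MG132. *Eif1b* thus had the higher count in each Ctrl library and *Eif1* in each MG132 library. The ratio of *Eif1a* to *Eif1ax* was 0.646, 0.741 and 0.841 in Ctrl somas, 2.07, 3.11 and 2.33 in MG132 somas, 0.354, 0.570 and 0.530 in Ctrl neurites and 0.656, 0.820 and 0.726 in MG132 neurites. It passed 1 in MG132 somas and in no other group. For *Eif4ebp1* to *Eif4ebp2* the ratio was 0.106, 0.123 and 0.204 in Ctrl somas, 0.737, 1.29 and 1.60 in MG132 somas, 0.202, 0.230 and 0.469 in Ctrl neurites and 3.08, 2.27 and 2.49 in MG132 neurites, so *Eif4ebp2* prevailed in each Ctrl library and *Eif4ebp1* in each MG132 neurites library. *Eif4a1* stayed below *Eif4a2* in all libraries, with ratios of 0.0986, 0.189 and 0.144 in Ctrl somas and 0.254, 0.346 and 0.277 in MG132 somas. No 75-base window was shared within these pairs, whereas 25.6% of the windows of *Eif1* and 27.7% of those of *Eif4a1* occur in genes outside the pairs.

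**Figure D3:**
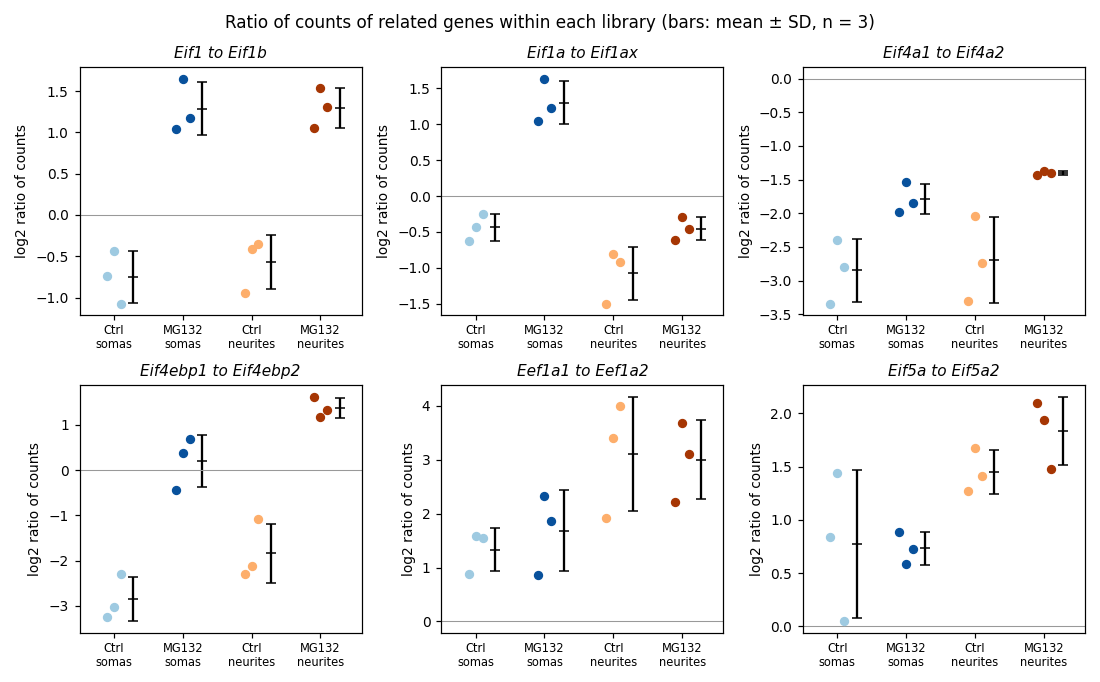
Log2 ratio of the counts of pairs of related genes within each library (points) for the 4 groups, with mean and SD beside them (n = 3); 0 marks equal counts. *Eif1* to *Eif1b* lies below 0 in all Ctrl libraries and above 0 in all MG132 libraries, and *Eef1a1* to *Eef1a2* is above 0 in all libraries and higher on average in neurites.

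The comparison of neurites with somas asked which factor mRNAs were found more in projections than in the fraction they came from. In Ctrl neurons, 24 of 66 factors (36.4%) were higher in neurites and 0 were lower, beside 10.2% and 4.65% of all genes tested. In MG132 neurons, 22 (33.3%) were higher and 0 lower, beside 11.4% and 6.35%. The 17 that were higher in both conditions included the eEF1 genes *Eef1a1*, *Eef1b2*, *Eef1d* and *Eef1g*, 6 eIF3 genes, *Eif5*, *Eif5a*, *Eif5b*, *Eif4g2*, *Eif1ax*, *Eif2s2* and *Eif2ak2*. The stricter call left 20 factors higher and 0 lower in Ctrl (6.15% and 1.28% of all genes), and 12 higher and 0 lower in MG132 (6.92% and 2.08%).

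These differences are relative to the typical gene, because they depend on the scaling of the libraries. The median log2 ratio of neurites to somas was 0.38 for the factors and -0.04 for all genes in Ctrl neurons, and 0.42 and -0.08 in MG132 neurons. On total counts the median of the factors turned negative, -0.31 in Ctrl and -0.32 in MG132 neurons, with all genes at -0.70 and -0.86. The distance between the factors and all genes was 0.42 in Ctrl and 0.51 in MG132 neurons with TMM, and 0.40 and 0.54 on total counts. On that scale 3 factors were higher and 3 lower in Ctrl neurites, and 4 higher and 6 lower in MG132 neurites. Of all genes, 2.28% were then higher and 19.3% lower in Ctrl neurites, and 2.11% and 30.6% in MG132 neurites. The share of all reads that fell on the factors was 0.443 to 0.553% in Ctrl somas and 0.407 to 0.652% in Ctrl neurites, and 0.691 to 0.829% and 0.583 to 1.08% in MG132 neurons, so the compartments overlapped in both conditions. With the replicate number as a block, *Eif3i* (0.83, adjusted p = 0.0199) and *Eif4h* (0.43, adjusted p = 0.0352) also passed in Ctrl neurons, and *Eif2a* (0.55, adjusted p = 0.0253), *Eif2s3x* (1.05, adjusted p = 0.0288), *Eif3f* (0.63, adjusted p = 0.00560), *Eif3m* (0.67, adjusted p = 0.0191), *Eif4b* (0.62, adjusted p = 0.00881) and *Eif4h* (0.44, adjusted p = 0.0275) in MG132 neurons. Without the libraries of replicate 1, 21 factors were higher in Ctrl neurites and 12 in MG132 neurites, with 0 lower. Of all genes, 986 were then higher and 318 lower in Ctrl neurites, and 988 and 331 in MG132 neurites.

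Markers of other cells moved with this comparison. The 3 tested fibroblast markers were lower in Ctrl neurites than in Ctrl somas. Of the 6 astrocyte markers, 3 were higher and 1 lower in Ctrl neurites, and 4 were higher and 1 lower in MG132 neurites. *Gfap*, which encodes the filament protein of astrocytes, was at 1786, 2553 and 1562 CPM in Ctrl somas and 16176, 21600.0 and 15606 CPM in Ctrl neurites. Summed oligodendrocyte markers were at 1358 to 5931 CPM in Ctrl somas and 4914 to 21714 CPM in Ctrl neurites, with *Mbp*, a myelin mRNA that oligodendrocytes carry into their own processes, at 11555, 3714 and 18913 CPM in the latter. Of the 5 neuronal markers, *Map2*, a dendritic mRNA, was higher and *Syt1* lower in neurites in both conditions. The nuclear RNA *Malat1* was lower in neurites (-1.16 ± 0.31 in Ctrl and -1.25 ± 0.31 in MG132 neurons). It still averaged 2126.5 CPM in Ctrl neurites, beside 4756 CPM in Ctrl somas. The dendritic mRNA *Camk2a* gave 1.34 ± 0.52 in Ctrl (adjusted p = 0.104) and 1.18 ± 0.52 in MG132 neurons (adjusted p = 0.138), with overlapping groups. With the block *Camk2a* passed in both (1.22, adjusted p = 7.56e-06, and 1.16, adjusted p = 1.54e-05). The part of the other cells in the values of the translation factors was not tested.

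**Figure D4:**
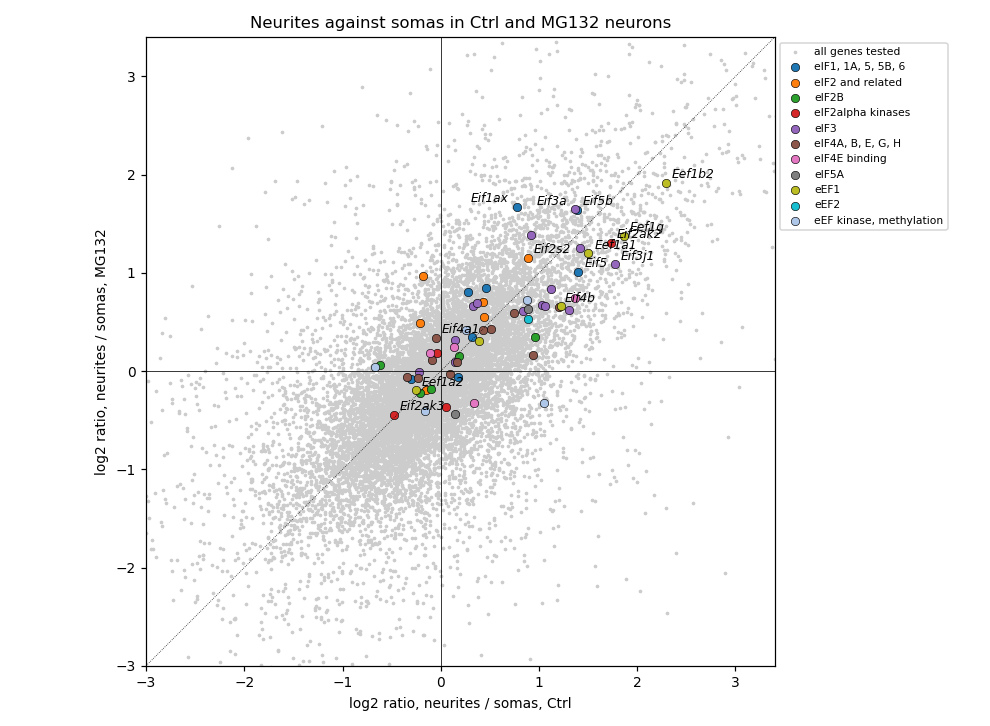
Log2 ratio of neurites over somas in Ctrl (horizontal axis) and MG132 neurons (vertical axis) for the translation factors, coloured by group, over all genes tested in grey, after TMM scaling; the dotted line marks equal ratios, and genes beyond the axes are not drawn. *Eef1b2*, *Eef1g*, *Eif5b* and *Eif3a* lie at the upper right, and no factor passed the test below 0; on total counts the median of the factors was below 0 in both conditions.

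The eEF1 genes were among those most shifted towards neurites. *Eef1b2*, the exchange subunit, had the largest ratio of the factors, with 47.7, 44.2 and 45.0 CPM in Ctrl somas and 201, 188 and 281 CPM in Ctrl neurites (log2 fold change 2.29 ± 0.22, adjusted p = 5.93e-06). In MG132 neurons it was at 55.1, 49.2 and 78.4 CPM in somas and 198, 275 and 219 CPM in neurites (log2 fold change 1.92 ± 0.22, adjusted p = 2.78e-05), and it stayed higher in neurites on total counts in both conditions. *Eef1g* and *Eef1d*, its partners in the exchange complex, had log2 ratios of 1.86 ± 0.21 and 1.22 ± 0.19 in Ctrl and 1.38 ± 0.20 and 0.66 ± 0.19 in MG132 neurons, and on total counts the latter value of *Eef1d* was -0.11. *Eef1a1* was at 231, 231 and 199 CPM in Ctrl somas and 463, 604 and 807 CPM in Ctrl neurites (log2 fold change 1.503 ± 0.20, adjusted p = 0.000117), and it was higher in MG132 neurites too (1.20 ± 0.20, adjusted p = 0.000825). On total counts *Eef1a1* passed in neither condition, and *Eef1g* passed in Ctrl but not in MG132 neurons. The neuronal *Eef1a2* was at 125, 77.2 and 68.3 CPM in Ctrl somas and 122, 56.8 and 50.8 CPM in Ctrl neurites (log2 fold change -0.25 ± 0.39, adjusted p = 0.740), with overlapping groups, and gave -0.19 ± 0.39 in MG132 neurons. Within libraries, the count of *Eef1a1* was 1.84, 2.99 and 2.92 times that of *Eef1a2* in Ctrl somas and 3.80, 10.6 and 15.9 times in Ctrl neurites. *Eef2* was higher in Ctrl neurites (log2 fold change 0.89 ± 0.18, adjusted p = 0.00395) and gave 0.53 ± 0.18 in MG132 neurons (adjusted p = 0.0570, and 0.53, adjusted p = 0.0109 with the block). Leaving out 1 library ended the call of *Eef1d* between MG132 compartments (MG132 somas 1 or 2 or MG132 neurites 2, adjusted p = 0.0586 to 0.108).

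Among the initiation factors, *Eif3a* and *Eif5b* had large ratios in both conditions. *Eif3a* had a log2 ratio of 1.36 ± 0.20 in Ctrl (adjusted p = 0.000187) and 1.65 ± 0.20 in MG132 neurons (adjusted p = 4.37e-05), with all neurites libraries above all somas libraries. *Eif5b* was at 122, 119.7 and 116 CPM in Ctrl somas and 291.57, 267 and 377 CPM in Ctrl neurites (log2 fold change 1.39 ± 0.18, adjusted p = 6.67e-05), and at 196, 152 and 200.2 CPM and 540.2, 562 and 613 CPM in MG132 neurons (log2 fold change 1.64 ± 0.18, adjusted p = 1.95e-05). The log2 ratios of *Eif5* were 1.40 ± 0.15 and 1.01 ± 0.15. Of the 14 eIF3 genes 8 were higher in neurites in Ctrl and 8 in MG132 neurons, *Eif3a*, *Eif3e*, *Eif3h*, *Eif3j1*, *Eif3j2* and *Eif3k* in both. *Eif3c* and *Eif3d* were close to even, with log2 ratios of 0.15 ± 0.16 and 0.15 ± 0.28 in Ctrl neurons. *Eif1* and *Eif1b* were higher in neurites in MG132 neurons (0.85 ± 0.17 and 0.81 ± 0.22) and gave 0.46 ± 0.17 and 0.28 ± 0.22 in Ctrl neurons. *Eif1ax* had a log2 ratio of 0.77 ± 0.16 in Ctrl and 1.67 ± 0.16 in MG132 neurons, the second largest there after *Eef1b2*. The beta subunit of eIF2, *Eif2s2*, was higher in neurites by 0.88 ± 0.22 and 1.15 ± 0.22. On total counts, *Eif3a*, *Eif5b*, *Eif1ax* and *Eef1b2* were the 4 factors that remained higher in MG132 neurites, and *Eif3b*, *Eif3g*, *Eif3h* and *Eif2s1* turned negative there (-0.14, -0.11, -0.09 and -0.08). With 1 library left out, the calls that ended were *Eif2s2* between Ctrl compartments (Ctrl somas 1 or 2 or Ctrl neurites 2 or 3, adjusted p = 0.0506 to 0.0923), *Eif3m* between Ctrl compartments (Ctrl somas 2 or Ctrl neurites 3, adjusted p = 0.0573 to 0.0784), *Eif3h* between MG132 compartments (MG132 somas 1 or 2 or 3 or MG132 neurites 2 or 3, adjusted p = 0.0574 to 0.144), *Eif3k* between MG132 compartments (MG132 somas 1 or MG132 neurites 2 or 3, adjusted p = 0.0513 to 0.0772), *Eif3j1* between MG132 compartments (MG132 somas 1 or 3 or MG132 neurites 1 or 2, adjusted p = 0.0654 to 0.115), *Eif1b* between MG132 compartments (MG132 somas 2 or MG132 neurites 1, adjusted p = 0.0564 to 0.0722) and *Eif2s1* between MG132 compartments (MG132 somas 1 or MG132 neurites 2, adjusted p = 0.0657 to 0.0684).

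Of the eIF2alpha kinases, *Eif2ak2* was the one with a shift towards neurites, at 35.8, 48.0 and 55.3 CPM in Ctrl somas and 132, 140.5 and 189 CPM in Ctrl neurites (log2 fold change 1.73 ± 0.27, adjusted p = 0.000424). In MG132 neurons *Eif2ak2* was at 23.8, 50.6 and 39.3 CPM in somas and 69.4, 109 and 101 CPM in neurites (log2 fold change 1.31 ± 0.27, adjusted p = 0.00355). The other kinases had log2 ratios of -0.03 ± 0.19 (*Eif2ak1*), -0.48 ± 0.25 (*Eif2ak3*) and 0.06 ± 0.22 (*Eif2ak4*) in Ctrl neurons and passed in neither condition. Within eIF2B, *Eif2b5* was higher in Ctrl neurites (0.96 ± 0.28, adjusted p = 0.0326), and the other subunits were not told apart between compartments.

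At the cap, *Eif4b*, *Eif4e* and *Eif4g2* were higher in Ctrl neurites (1.20 ± 0.25, 0.93 ± 0.19 and 0.75 ± 0.17), and *Eif4g2* also in MG132 neurites (0.59 ± 0.17), a value that was -0.16 on total counts. *Eif4g1*, *Eif4g3*, *Eif4a1* and *Eif4a2* had log2 ratios between -0.34 ± 0.16 (*Eif4a2*) and -0.05 ± 0.30 (*Eif4a1*) in Ctrl neurons and did not pass. *Eif5a* was higher in neurites in Ctrl (log2 fold change 0.89 ± 0.16, adjusted p = 0.00112) and in MG132 neurons (0.63 ± 0.16, -0.17 on total counts), and its relative *Eif5a2* gave 0.15 ± 0.27 and -0.44 ± 0.27. *Eif4ebp1* was higher in Ctrl neurites (1.37 ± 0.42, adjusted p = 0.0394). Calls of this kind that ended without 1 library were *Eif2b5* between Ctrl compartments (Ctrl somas 2 or 3 or Ctrl neurites 1 or 3, adjusted p = 0.0959 to 0.162), *Eif4ebp1* between Ctrl compartments (Ctrl somas 1 or 3 or Ctrl neurites 2 or 3, adjusted p = 0.0678 to 0.170), *Eif4g2* between Ctrl compartments (Ctrl somas 3, adjusted p = 0.0561), *Eif4g2* between MG132 compartments (MG132 somas 1 or 2 or MG132 neurites 2, adjusted p = 0.0612 to 0.123) and *Eif5a* between MG132 compartments (MG132 somas 2, adjusted p = 0.0512).

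Whether MG132 acted differently in neurites and somas was tested as the difference of the 2 responses. With edgeR, 0 of 66 factors and 0.0% of all genes passed in either direction (0.0% higher and 0.0% lower), and at an unadjusted p under 0.05 there were 1 factor with the higher response in neurites and 2 with the lower, beside 474 and 526 of all genes. The one with the higher response was *Eif1ax*, whose responses differed by 0.90 ± 0.22 (adjusted p = 0.328), and the others were *Eif4e* (-0.77 ± 0.26, adjusted p = 0.510) and *Eif3f* (-0.68 ± 0.30, adjusted p = 0.674). DESeq2 passed *Eif1ax* alone among the factors (0.93, adjusted p = 0.00746), among 45 genes whose response was higher in neurites and 27 whose response was lower. With the replicate number as a block, edgeR passed 47 and 43 genes and no factor, with *Eif1ax* at an adjusted p of 0.0603. A response that passed in one compartment and not in the other is therefore not shown to differ between them. For *Eif1ax* the difference passed with DESeq2 and not with edgeR.

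Levels per kilobase of exon, which allow a rough comparison of genes, put *Eef2* and *Eef1a1* in the first 2 places in each group. Of the 75-base windows, 41.7% of those of *Eef1a1* and 2.59% of those of *Eef2* occur in other genes, so the order of these 2 is uncertain. In Ctrl somas *Eef2* was at 95.6 CPM per kb and *Eef1a1* at 88.4, and in Ctrl neurites *Eef1a1* was at 250.4 and *Eef2* at 177. *Eif4g2* followed at place 3 in 3 groups and at place 4 in MG132 neurites, where *Eif3a* was at place 3 with 178 CPM per kb. *Eef1b2* was at place 13 in Ctrl somas (18.0 CPM per kb) and at place 4 in Ctrl neurites (88.2). *Eif1b* was at place 6 in Ctrl somas (38.2 CPM per kb) and at place 20 in MG132 somas (19.6).

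**Figure D5:**
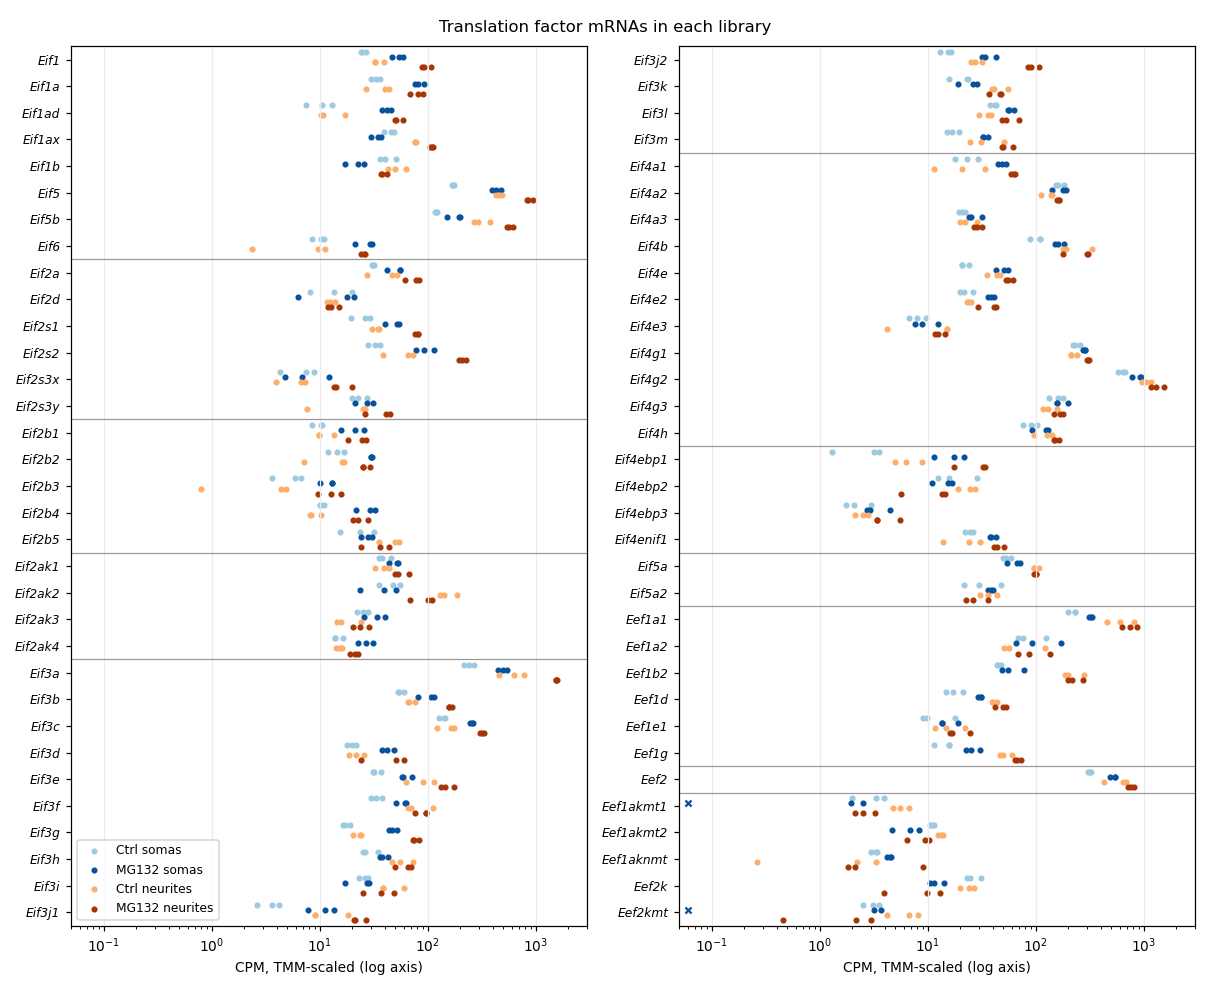
CPM of each tested translation factor in each of the 12 libraries (log axis), with genes grouped by role and separated by lines; crosses at the left edge mark libraries without a read. The elongation factors *Eef1a1* and *Eef2* and the initiation factors *Eif3a* and *Eif4g2* are at the right of their panels, and for *Eif5*, *Eif1* and *Eif3a* the MG132 points lie to the right of the Ctrl points in both compartments.

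Other genes of the pathway were counted from lists. Of the 13 genes of the integrated stress response, which follows phosphorylation of eIF2alpha, 11 rose in somas (median 2.42), and 11 rose and 1 fell in neurites (median 2.28). *Atf3*, a transcription factor of this response, rose from 9.46, 14.0 and 16.3 CPM to 348, 332 and 531 CPM in somas (log2 fold change 4.94 ± 0.33, adjusted p = 3.02e-07), and *Trib3*, an inhibitor in the same response, by 4.70 ± 0.60. *Chac1*, which encodes an enzyme that degrades glutathione, rose from 1.24, 1.33 and 2.21 CPM to 62.8, 40.7 and 52.1 CPM in somas. *Ppp1r15a*, which directs the phosphatase of eIF2alpha, rose by 3.87 ± 0.22 in somas and 3.27 ± 0.22 in neurites, and *Atf4* itself by 2.42 ± 0.22 and 2.28 ± 0.22. The one that fell in neurites was *Atf5* (-1.48 ± 0.25), which was at 284, 162 and 175 CPM in Ctrl neurites and 20.9, 22.6 and 19.0 CPM in Ctrl somas.

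Of the 14 genes that link mTOR and MNK kinases to initiation, 7 rose and 1 fell in somas (median 0.60) and 5 rose in neurites (median 0.51). *Larp1*, which binds the pyrimidine-rich starts of mRNAs such as those of elongation factors, rose by 1.53 ± 0.16 and 1.52 ± 0.16, and *Rheb*, the activator of mTOR, by 1.16 ± 0.18 and 1.25 ± 0.18. *Rps6kb2*, a kinase of ribosomal protein S6, rose in somas (1.06 ± 0.29), gave 0.62 ± 0.31 in neurites and was lower in neurites than in somas in MG132 neurons (-1.35 ± 0.30). *Mknk2*, a kinase of eIF4E, rose by 1.09 ± 0.24 and 0.82 ± 0.25, and *Pdcd4*, an inhibitor of eIF4A, was the one that fell in somas (-1.07 ± 0.26, adjusted p = 0.00774). Of 5 genes of poly(A) binding, 2 rose in somas and 1 in neurites, and 4 were higher in Ctrl neurites than in Ctrl somas. *Pabpc1*, the main poly(A)-binding protein and a partner of eIF4G, was at 124, 131 and 163 CPM in Ctrl somas and 456, 607 and 903 CPM in Ctrl neurites (log2 fold change 2.23 ± 0.24, adjusted p = 1.85e-05), and *Paip2b*, its inhibitor, had a log2 ratio of 1.98 ± 0.18. Its relative *Pabpc4* and its partner *Paip1* had log2 ratios of 1.07 ± 0.28 and 0.68 ± 0.17.

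Of the 8 genes of termination, recycling and rescue, 3 rose and 1 fell in somas and 3 rose in neurites. *Etf1*, the release factor that reads stop codons, rose from 92.8, 106 and 87.3 CPM to 296.26, 321 and 334 CPM in somas (log2 fold change 1.73 ± 0.18, adjusted p = 1.76e-05) and by 1.76 ± 0.18 in neurites. *Hbs1l*, of ribosome rescue, and *Abce1*, of ribosome recycling, also rose in both (0.81 ± 0.21 and 1.32 ± 0.22, 0.76 ± 0.16 and 1.05 ± 0.16). The reinitiation factor *Mcts1* fell in somas (-0.95 ± 0.27), and it and its partner *Denr* were higher in MG132 neurites than in MG132 somas (1.46 ± 0.27 and 1.36 ± 0.17). Both enzymes that activate eIF5A, *Dhps* and *Dohh*, passed in no comparison. Of 9 mitochondrial translation factors, 2 rose in somas (median 0.14) and 3 in neurites (median 0.41), with *Tufm*, the mitochondrial counterpart of eEF1A, at 1.59, 1.34 and 0.841 CPM in Ctrl and 8.21, 3.84 and 5.33 CPM in MG132 neurites (log2 fold change 2.19 ± 0.60, adjusted p = 0.0140). The Ctrl neurites libraries held only 6, 12 and 5 counts of *Tufm*. The release factor *Mtrf1l* rose in both compartments (0.96 ± 0.34 and 1.60 ± 0.34), the elongation factor *Gfm1* in somas (0.86 ± 0.23) and the initiation factor *Mtif2* in neurites (0.84 ± 0.20). The call of *Mtrf1l* in somas was close to the threshold (adjusted p = 0.0449) and did not pass with the block (0.96, adjusted p = 0.0536).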

How the data were processed

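RNA-seq libraries (polyA selection) were made from the 12 samples, and the authors deposited one table of raw counts per sample, whole numbers of reads per Entrez gene. The submitters' notes name Trimmomatic 0.38.0, STAR, featureCounts 2.0.1 and DESeq2 2.11.40.7, and the genome mm10, and the strand setting of the counting is not given in the sources used here. Genes were named through the reference table by Entrez identifier. The deposited counts were analysed with edgeR 4.0.16 in R 4.3.3: genes were kept by filterByExpr, libraries scaled by TMM, and the quasi-likelihood test applied to the means of the 4 groups over all 12 libraries, with Benjamini-Hochberg adjustment over 14185 genes and a threshold of 0.05. Standard errors were taken as the absolute log2 fold change over the square root of F. CPM are scaled by TMM factors, and per kb by union exon length. Total counts ranged from 4247610 to 22166347, which limits the precision of factors with few reads.

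The members and the gene lists were chosen with earlier results of these data known. Values were given for the called members, the 10 with the largest changes in each direction first, and for a list of key genes, and for up to 4 called genes with the largest changes of each pathway list. The other genes named, among them *Atf4*, *Atf5*, *Pdcd4*, *Abce1* and some eIF3 subunits, were chosen after their values were seen. Same-numbered libraries deviated together (correlation of deviations from group means 0.165 to 0.248 within the 4 pairs of groups compared), so the numbers were taken to pair the libraries, and a fit with the replicate number as a block was made. Calls and standard errors not said to be with the block, and all fits without 1 library, do not use this pairing. Alternatives were DESeq2 1.42.0, its size factors, total counts, other count filters, fits of the compared groups alone, leaving out each library, and a stricter call, with 2 added after the data were seen: leaving out replicate 1, and total counts without mitochondrial genes and the most abundant other gene. The procedures were tested on simulated data. All 12 tables were used.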

Additional observations from a re-analysis of the deposited data

Results flagged for a closer look

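The response of *Eif1ax* differed between neurites and somas by 0.898 on the log2 scale. It was chosen because MG132 was lower than Ctrl in each of the 3 same-numbered pairs of somas libraries and higher in each of the 3 pairs of neurites libraries. The difference was tested: edgeR gave an adjusted p of 0.328 over all genes, and 0.0603 with the replicate number as a block, while DESeq2 gave 0.00746. It did not pass the correction in edgeR.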

How the results depend on the processing

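The direction of the called MG132 responses held under each alternative run, and the number of calls depended most on the scaling. Of 114 called results of single factors, 0 were lost with DESeq2, 6 with its size factors, 6 when only the compared groups were fitted, 1 without a count filter and 7 with at least 10 counts in every library, where 111 could be tested. Without the libraries of replicate 1, 34 were lost, and 32 on total counts without mitochondrial genes and the most abundant other gene. On total counts 72 fell short of the threshold, and 7 turned negative between MG132 compartments: *Eef1d* (-0.11), *Eif2s1* (-0.076), *Eif3b* (-0.14), *Eif3g* (-0.11), *Eif3h* (-0.094), *Eif4g2* (-0.16) and *Eif5a* (-0.17).

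On total counts 13 factors rose and 1 fell with MG132 in somas, 13 rose and 1 fell in neurites, 3 were higher and 3 lower in Ctrl neurites, and 4 higher and 6 lower in MG132 neurites. Without mitochondrial genes and the most abundant other gene in the total, 12 were higher and 5 lower in Ctrl neurites and 11 higher and 3 lower in MG132 neurites. Of all genes, 710 were then higher and 2849 lower in Ctrl neurites, and 855 and 3127 in MG132 neurites. With MG132 in somas, 4 fell with DESeq2, 4 with the count minimum of 10, 1 under the stricter call and 1 without replicate 1. Of all genes, 2399 fell there with DESeq2 and 1648 with the count minimum. In neurites 19 rose and 1 fell under the stricter call, and 0 fell without replicate 1. Between MG132 compartments 12 were higher under the stricter call and 12 without replicate 1. DESeq2 passed 1 factor for the difference of responses, where edgeR passed 0. The causes of these changes were not tested.

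Leaving out 1 library gave 28 to 29 higher and 1 to 2 lower with MG132 in somas, 20 to 34 and 1 to 2 in neurites, 20 to 24 higher in Ctrl neurites, 16 to 21 in MG132 neurites, and 0 for the difference of responses. Counts of all genes in these fits are not given here, so these numbers do not compare the factors with other genes. Genes were filtered anew in each fit, so the number of genes tested could differ when libraries or the filter changed. With the replicate number as a block, 36 rose and 2 fell in somas, 33 rose and 3 fell in neurites, 26 were higher in Ctrl neurites and 29 in MG132 neurites, and 0 calls were lost. Of all genes, 2697 rose and 2472 fell in somas with the block, and 2514 and 2564 in neurites. Between compartments, 1941 were higher and 1316 lower in Ctrl neurites, and 2142 and 1660 in MG132 neurites. Factors under about 10 CPM, such as the methyltransferases, are limited by depth.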
